A study of Homo sapiens with 12 samples.

Results

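Whether 10% CO2 changes what LPS does to a monocyte's mRNAs was asked here as a difference of differences, over all 12 of the 12 libraries of the study. The LPS effect at 10% CO2 (10% CO2 with LPS against 10% CO2) was set against the LPS effect at 5% CO2 (5% CO2 with LPS against 5% CO2), and the difference between these log2 effects is called the interaction. It is positive where LPS raised a gene more, or lowered it less, at 10% CO2. All cells were from THP-1, a long-established line grown from a human monocytic leukaemia. They had been transduced with lentiviral particles for a non-target shRNA, so every group, controls included, carried that shRNA. Cells were kept for 4 h in a chamber at 5% CO2 (normocapnia) or at 10% CO2 (hypercapnia) in buffered medium. The 2 groups with LPS received 2.5 µg/ml of it for the last 2 h. Each of the 4 groups held 3 libraries, and the 12 were chosen by sample title.

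LPS, a component of the outer membrane of Gram-negative bacteria, is sensed by TLR4. The receptor's adaptors release NF-κB from its inhibitors and activate MAP kinases, and within hours monocytes transcribe cytokines, chemokines, the NF-κB subunits and the proteins that later shut the response down. Hypercapnia, a raised CO2 level, occurs in severe lung disease, and CO2 has been described as a modulator of NF-κB signalling. Buffering the medium is meant to separate CO2 itself from acidity.

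Total gene counts were 17.1 to 22.2 M reads per library. Of 57500 genes, 16402 had enough counts to be tested. The markers SPI1, LYZ, CTSS, TYROBP and FCER1G of the myeloid lineage were present in every library. CD14 was at 4.39 to 16.4 CPM (counts scaled to a library total of 1 M) and CD68 at only 1.37 to 1.94. Markers of other cell types summed to 10.8 to 15.3 CPM in a library, with HBA1 at 0. The labels do not say whether the 3 libraries of a group stem from separate cultures. The p-values then reflect only how far these samples differ from each other, which may be technical. In bulk RNA, fewer cells of a type and less RNA per cell cannot be told apart.

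HIVEP2 was the 1 gene that passed the test of the interaction, and its LPS induction was larger at 10% CO2. HIVEP2 (ENSG00000010818) encodes a large zinc finger protein that binds κB-like DNA elements and belongs to the same family as HIVEP1 and HIVEP3. The gene lies on the minus strand of chromosome 6, at chr6:142751467-142945201 of GRCh38. Its level was 40.3, 41.5 and 43.4 CPM at 5% CO2, 121, 102 and 139 at 5% CO2 with LPS, 33.2, 27.2 and 30.4 at 10% CO2, and 198, 195 and 198 at 10% CO2 with LPS. Every LPS library lay above every library without LPS. The 10% CO2 libraries were the lowest without LPS and the highest with it, and no groups overlapped. LPS raised HIVEP2 2.89-fold at 5% CO2 and 6.51-fold at 10% CO2. The interaction was 1.17 ± 0.15 on the log2 scale (standard error, SE; 95% interval 0.86 to 1.47), which makes the fold 2.25 times as large (edgeR quasi-likelihood test, Benjamini-Hochberg adjusted p = 0.00330). That was 1 called gene of 16402, or 0.0061%.

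The CO2 effect on HIVEP2 had opposite signs without and with LPS. Without LPS it was −0.46 (edgeR, adjusted p = 0.0372), and with LPS it was 0.71 (adjusted p = 0.000951). With 1 library left out, the effect with LPS passed in 12 of 12 cases. The effect without LPS stayed below 0 (−0.53 to −0.39) but passed in 4 of 12, with adjusted p of 0.0207 to 0.234. Those 4 left out 10% CO2 replicate 1 or 1 of the 5% CO2 with LPS libraries, and leaving out any other library ended that call.

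The CO2 effect was called in 1.47% of genes (241) without LPS and in 8.68% (1423) with LPS, and both counts rested on single libraries. Without LPS there were 0 calls when 10% CO2 replicate 2 was left out. There were 1, 14 and 146 without 5% CO2 replicates 1, 2 and 3, and 152 when 10% CO2 with LPS lost its replicate 3. The count was 524 without 10% CO2 replicate 1. With LPS there were 267 and 897 calls without 10% CO2 with LPS replicates 2 and 3, and 417 and 461 without 5% CO2 with LPS replicates 1 and 2. HIVEP2 was the 1 gene with opposite signs among the 157 genes called in both. Leaving out 1 library gave 0 to 245 genes called in both and 0 to 5 with opposite signs, and HIVEP2 was then not always among them.

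Among its relatives, HIVEP1 had an interaction of 0.81 (adjusted p = 0.219) and HIVEP3 one of 0.23 (adjusted p = 0.968), and neither passed.

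The next smallest p-values, which did not pass, belonged to CD44, STARD4 and PDGFA. The RefSeq promoters of these 3 genes and of HIVEP2 are shown because these 4 genes had the smallest p-values of the interaction. Each window runs from 250 bases before to 50 bases after a transcription start on GRCh38.p14, 5′ to 3′ on the gene's strand. Where a gene had several entries, the start nearest to the gene's 5′ end in the count tables was taken. Capitals mark the GC box GGGCGG, a site for SP1-like factors, on either strand.
HIVEP2, chr6:142945127-142945426, minus strand: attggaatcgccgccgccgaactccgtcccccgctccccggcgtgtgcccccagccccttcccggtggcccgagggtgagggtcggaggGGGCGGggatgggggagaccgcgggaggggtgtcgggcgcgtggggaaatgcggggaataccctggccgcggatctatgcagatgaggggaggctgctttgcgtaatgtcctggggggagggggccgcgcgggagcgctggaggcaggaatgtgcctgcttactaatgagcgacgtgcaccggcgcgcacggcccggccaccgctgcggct
CD44, chr11:35138921-35139220, plus strand: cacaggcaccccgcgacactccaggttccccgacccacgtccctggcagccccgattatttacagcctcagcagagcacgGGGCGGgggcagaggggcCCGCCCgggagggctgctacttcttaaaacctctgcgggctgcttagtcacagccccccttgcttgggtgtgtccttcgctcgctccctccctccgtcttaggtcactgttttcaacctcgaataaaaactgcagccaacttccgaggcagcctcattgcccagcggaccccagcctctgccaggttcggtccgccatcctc
STARD4, chr5:111512486-111512785, minus strand: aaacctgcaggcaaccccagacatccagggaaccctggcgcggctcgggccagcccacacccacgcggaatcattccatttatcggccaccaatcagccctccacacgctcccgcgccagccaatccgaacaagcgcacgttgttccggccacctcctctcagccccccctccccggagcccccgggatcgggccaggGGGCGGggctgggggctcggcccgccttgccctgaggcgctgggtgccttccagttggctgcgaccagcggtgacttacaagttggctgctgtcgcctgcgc
PDGFA, chr7:520177-520476, minus strand: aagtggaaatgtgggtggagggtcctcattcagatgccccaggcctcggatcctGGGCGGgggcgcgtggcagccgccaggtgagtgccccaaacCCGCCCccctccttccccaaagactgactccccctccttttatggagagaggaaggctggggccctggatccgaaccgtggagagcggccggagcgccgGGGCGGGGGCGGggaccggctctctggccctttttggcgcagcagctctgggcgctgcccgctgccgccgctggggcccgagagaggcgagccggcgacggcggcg

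These windows were 72% G and C for HIVEP2, 63.3% for CD44, 69% for STARD4 and 71.7% for PDGFA. They held 1, 2, 1 and 4 GC boxes in that order, overlapping copies counted. Of the 24 genes described in the next paragraphs, 20 had a promoter entry, and 18 of these (90.0%) had a GC box in at least 1 entry, against 77.9% of 8705 genes whose mean was 5 CPM or more. The NF-κB motif GGGANNTTCC was in none of the 20, against 2.07% of those 8705 genes (1.61% of all 35116 promoter entries). The AP-1 motif TGANTCA was in 1 of the 20, C3AR1, against 6.4%, and the cyclic AMP response element TGACGTCA was in none, against 3.95%. Both strands were searched. A missing match says only that these letters are not in these windows.

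CD44, the hyaluronan receptor, was measured at 131, 111 and 102 CPM at 5% CO2, 254, 203 and 249 at 5% CO2 with LPS, 92.8, 75.5 and 71.4 at 10% CO2, and 392, 408 and 302 at 10% CO2 with LPS. All 3 libraries at 10% CO2 without LPS lay below all 3 at 5% CO2, and all 3 at 10% CO2 with LPS lay above all others. The LPS effect was 1.03 at 5% CO2 and 2.20 at 10% CO2, an interaction of 1.17 ± 0.19 (edgeR adjusted p = 0.0742).

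STARD4, a carrier that moves cholesterol between membranes, was at 19.7, 17.9 and 19.8 CPM at 5% CO2, 63, 64.2 and 72.7 at 5% CO2 with LPS, 14.3, 14.1 and 14.7 at 10% CO2, and 83.4, 111 and 89.4 at 10% CO2 with LPS. The groups did not overlap, and 10% CO2 was again lowest without LPS and highest with it. The interaction was 0.92 ± 0.16 (edgeR adjusted p = 0.0742). PDGFA, the A chain of platelet-derived growth factor, stood at 6.10, 4.91 and 5.25 CPM at 5% CO2, 30.4, 30.6 and 41.9 at 5% CO2 with LPS, 3.28, 3.09 and 3.66 at 10% CO2, and 47.4, 61.1 and 51.6 at 10% CO2 with LPS, with the same order of groups and no overlap. Its interaction, 1.33 ± 0.23, was the highest of the 24 genes (edgeR adjusted p = 0.0742).

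**Figure D1:**
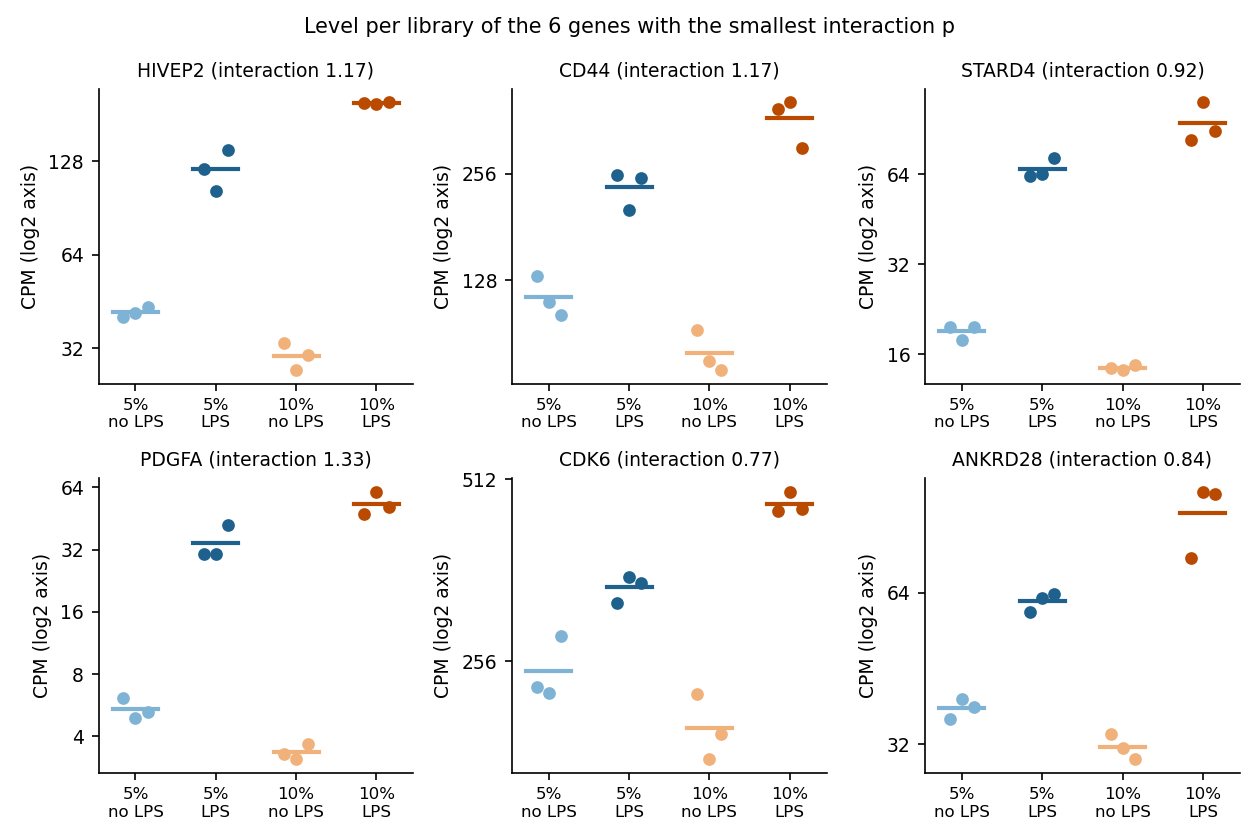
TMM-normalized level (CPM, log2 axis) in each of the 12 libraries for the 6 genes with the smallest interaction p. Points are libraries, bars are group means, and in HIVEP2 the 3 libraries at 10% CO2 with LPS sit at 195 to 198 CPM, above the 102 to 139 at 5% CO2 with LPS.

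With edgeR's default dispersion handling in place of the one used here, CD44, STARD4 and PDGFA also passed (adjusted p = 0.0460 for each), 4 calls in all. The number of calls beyond HIVEP2 moved with single libraries as well. Without 5% CO2 with LPS replicate 3, 31 genes were called, 29 of them with a positive interaction. Without 10% CO2 replicate 1, 19 were called. Without 10% CO2 with LPS replicate 1 there were 6 calls, and without its replicate 3 there were 2. HIVEP2 was called in each of the 25 alternative analyses.

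To describe what else lay near the threshold, HIVEP2 and the 23 genes with the next smallest interaction p among those whose mean was 5 CPM or more are described as a set. Since a small p chose these 24, their values are a description. Of the 24, 22 had a positive interaction and 2 a negative one, with sizes from 0.59 to 1.33 on the log2 scale and adjusted p from 0.0742 to 0.184 after HIVEP2. All 22 were LPS-induced on average over the CO2 levels and the 2 were LPS-repressed, so in all 24 the LPS effect was further from 0 at 10% CO2. In each, the 9 differences between an LPS library and a library without LPS at 10% CO2 all lay beyond the 9 at 5% CO2. Over all genes tested, 1.34% had such separation in the positive and 1.04% in the negative direction. A small interaction p over the same libraries favours this separation, and the differences share libraries, so it is no further support.

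The interaction is also the CO2 effect with LPS minus that without, so choosing genes by it favours CO2 effects of opposite sign. Of the 22 genes, 20 had an estimated CO2 effect below 0 without LPS and above 0 with it. The exceptions were LGR4 and DMXL2, where both were above 0. Several values without LPS were near 0, such as ANKRD33B (−0.002 ± 0.12) and GPD2 (−0.06 ± 0.14). HIVEP2 was the 1 gene of the 24 that passed both without and with LPS. The median CO2 effect over the 24 was −0.15 without LPS and 0.56 with LPS. The CO2 effect passed the test with LPS in 22 of the 24, against 8.68% of all genes. Without LPS it passed in 2, HIVEP2 and TP53INP1, against 1.47% of all genes. The LPS effect passed in 21 of the 24 at 5% CO2 and in all 24 at 10% CO2 (edgeR, adjusted p), against 25.2% and 35.4% of all genes. The CO2 and LPS effects both enter the interaction that chose these genes, which favours high counts.

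**Figure D2:**
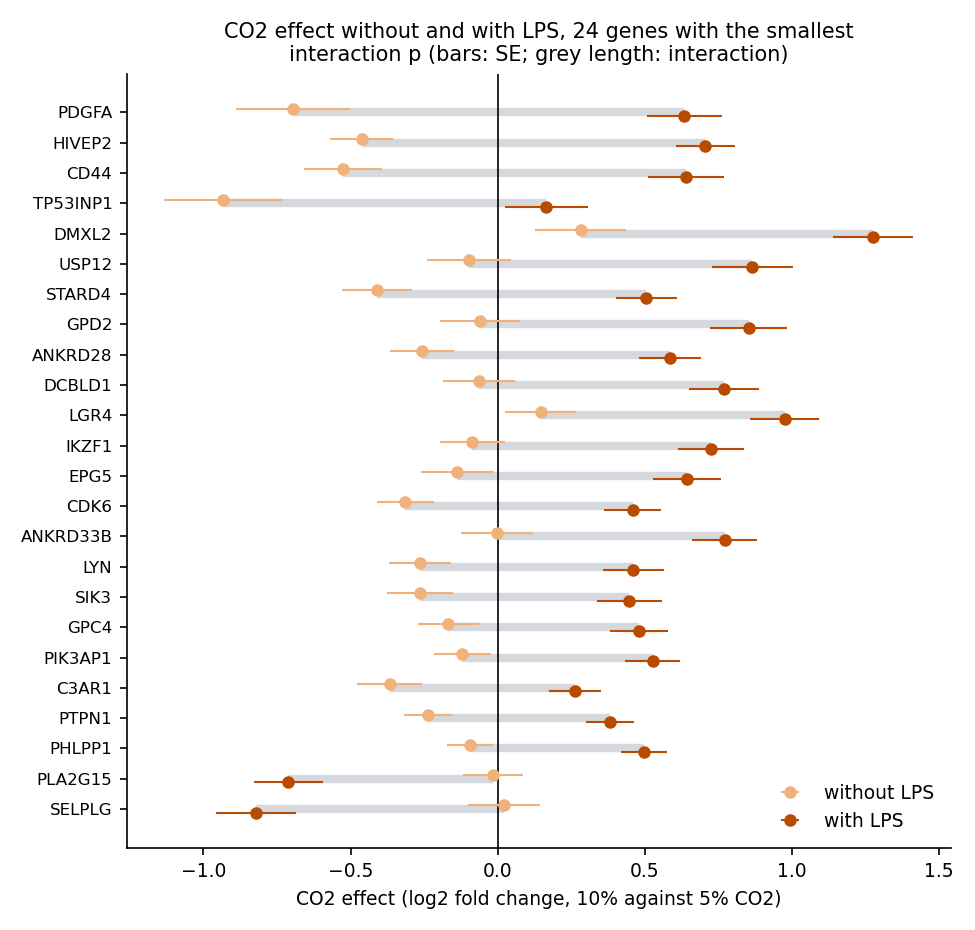
CO2 effect (log2 fold change, 10% against 5% CO2) without LPS and with LPS for the 24 genes with the smallest interaction p, ordered by the interaction. Bars are standard errors, the grey length between the points is the interaction, and for HIVEP2 it runs from −0.46 to 0.71.

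Of the 24, CDK6, a kinase of the G1 phase, was at 232, 227 and 282 CPM at 5% CO2, 320.1, 353 and 344 at 5% CO2 with LPS, 226, 176 and 194 at 10% CO2, and 453, 488 and 458 at 10% CO2 with LPS, and every 10% CO2 library without LPS lay below every 5% CO2 library. Its interaction was 0.77 ± 0.14 (edgeR adjusted p = 0.0743). PTPN1, a tyrosine phosphatase that acts on cytokine and insulin receptors, had an interaction of 0.62 ± 0.12, and PHLPP1, a phosphatase of AKT, one of 0.59 ± 0.11. LYN, a SRC-family kinase of myeloid cells, had 0.73 ± 0.15, and PIK3AP1, the adaptor BCAP that links TLRs to PI3-kinase, 0.65 ± 0.14. SIK3, a salt-inducible kinase, had 0.71 ± 0.16. ANKRD28, a subunit of protein phosphatase 6, was at 36, 39.4 and 38 CPM at 5% CO2, 58.7, 62.5 and 63.8 at 5% CO2 with LPS, 33.6, 31.4 and 29.8 at 10% CO2, and 75.2, 102 and 101 at 10% CO2 with LPS, with no overlap between groups and an interaction of 0.84 ± 0.15.

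IKZF1, which encodes the haematopoietic transcription factor Ikaros, was one of 3 genes whose LPS effect passed at 10% CO2 and not at 5% CO2. The level of IKZF1 was 199, 167 and 168 CPM at 5% CO2, 162, 142 and 169 at 5% CO2 with LPS, 191, 164 and 148 at 10% CO2, and 249, 299 and 234 at 10% CO2 with LPS. The libraries at 10% CO2 with LPS were the highest, and the other 3 groups overlapped. The LPS effect was −0.18 at 5% CO2 and 0.63 at 10% CO2, an interaction of 0.81 ± 0.16 (edgeR adjusted p = 0.113). The others of the 3 were SIK3, with LPS effects of 0.04 and 0.75, and DCBLD1, with 0.08 and 0.91.

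Among surface proteins, LGR4, a receptor for R-spondins, had an interaction of 0.83 ± 0.17. C3AR1, the receptor of the complement fragment C3a, had 0.63 ± 0.14, and GPC4, a glypican, 0.65 ± 0.14. SELPLG, the P-selectin ligand by which leukocytes roll on endothelium, was the clearest of the genes that LPS lowered. It stood at 52.2, 52.4 and 41 CPM at 5% CO2, 34.3, 31.1 and 24.7 at 5% CO2 with LPS, 48.8, 48.4 and 50.5 at 10% CO2, and 19.4, 14.7 and 16.8 at 10% CO2 with LPS. The groups without LPS overlapped, and with LPS all 10% CO2 libraries lay below all 5% CO2 libraries. Its LPS effect was −0.69 at 5% CO2 and −1.54 at 10% CO2, an interaction of −0.84 ± 0.18 (edgeR adjusted p = 0.184). PLA2G15, a lysosomal phospholipase, showed LPS effects of −0.99 and −1.68, an interaction of −0.70 ± 0.16.

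The other members were USP12, a deubiquitinase (0.97 ± 0.20), GPD2, the mitochondrial glycerol-3-phosphate dehydrogenase (0.91 ± 0.19), and DMXL2, which takes part in V-ATPase assembly (1.00 ± 0.21). EPG5, which acts in autophagosome fusion, had an interaction of 0.78 ± 0.17, and TP53INP1, a p53 target, one of 1.10 ± 0.24. DCBLD1 and ANKRD33B had 0.83 ± 0.17 and 0.77 ± 0.16. All of these are log2 interactions that did not pass the test.

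Most of the 24 were long genes, a property looked at after their values were seen. Their median span on the chromosome was 111 kb, against 31.8 kb over the 10811 genes whose mean was 5 CPM or more, and 18 of the 24 spanned more than the latter value. Over all genes, the median interaction rose with span. It was −0.05 in the 20% of genes with the shortest span and −0.04, −0.01, 0.02 and 0.04 in the next 4 bins. Whether span has a part in single results was not tested. The median exon GC content of the 24 was 45.5%, against 47.9% over those 10811 genes. The interaction itself moved with GC content over all genes. Its median went from 0.10 in the 20% of genes with the lowest exon GC content to 0.05, 0.00, −0.06 and −0.13 in the next 4 bins of equal size. Whether this trend has a part in single results was tested only by a correction for it, which called 5 genes: HIVEP2, CDK6, PHLPP1, PDGFA and RELB.

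**Figure D3:**
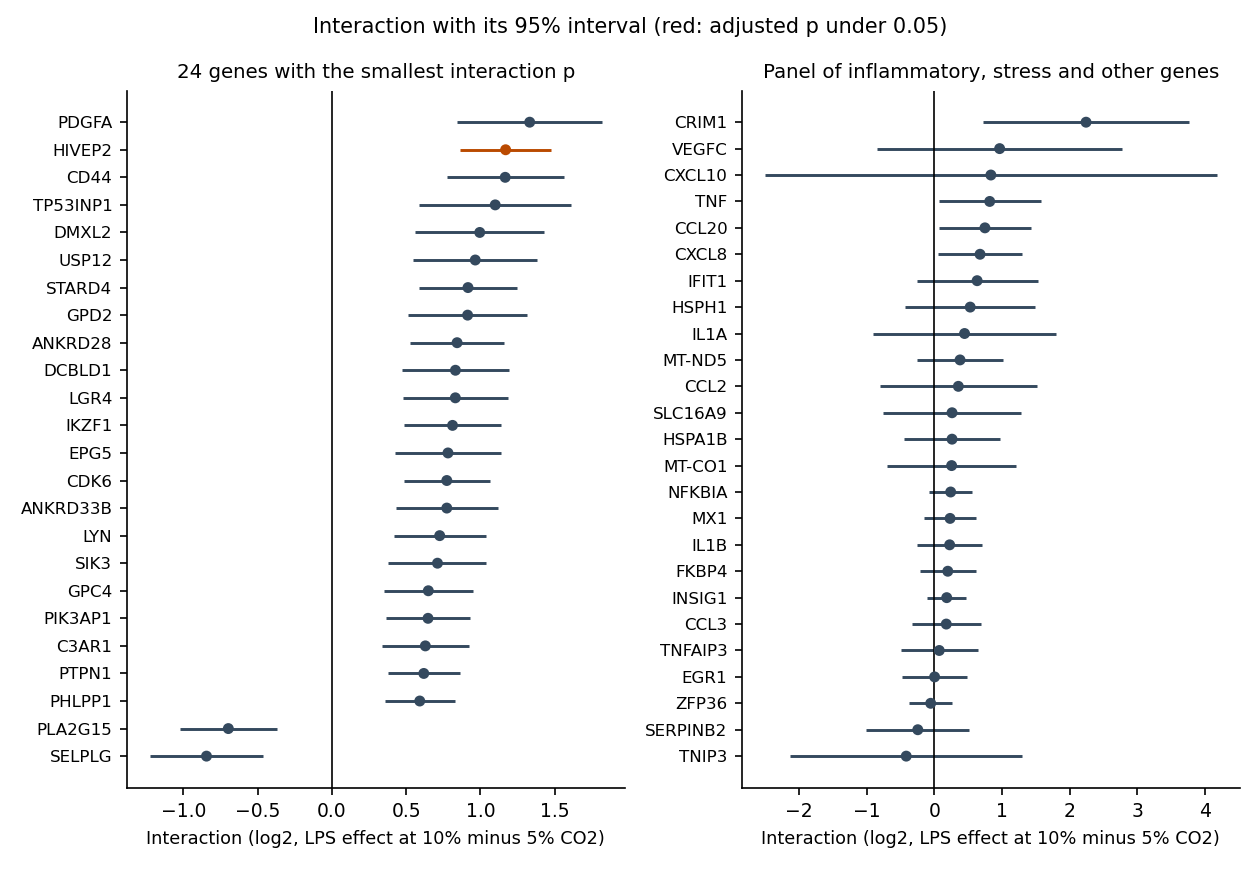
Interaction (log2, LPS effect at 10% minus that at 5% CO2) with its 95% interval for the 24 genes with the smallest interaction p (left) and for a panel of 25 inflammatory, stress and other genes (right, on a wider axis). HIVEP2 is the 1 gene with an adjusted p under 0.05, and the panel runs from −0.42 for TNIP3 to 2.24 for CRIM1.

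The classical inflammatory products of LPS did not pass the test of the interaction. TNF was at 31.2, 31.9 and 21.1 CPM at 5% CO2, 1110.0, 1042 and 1007 at 5% CO2 with LPS, 14.9, 8.52 and 20.8 at 10% CO2, and 1074, 953 and 919 at 10% CO2 with LPS. With LPS the CO2 levels overlapped, and without LPS every 10% CO2 library was below every 5% CO2 library. The LPS effect on TNF was 5.23 and 6.05, an interaction of 0.82 with a 95% interval of 0.06 to 1.57 (edgeR adjusted p = 0.799).

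CXCL8, the neutrophil chemokine IL-8, was at 21.4, 15.7 and 10.7 CPM at 5% CO2, 4022, 3352 and 2899.9 at 5% CO2 with LPS, 11, 9.43 and 9.76 at 10% CO2, and 3739.9, 3467 and 3152 at 10% CO2 with LPS. Here too the libraries with LPS overlapped between CO2 levels, and the interaction was 0.68 (interval 0.05 to 1.30, edgeR adjusted p = 0.799). IL1B, the inflammasome cytokine, was at 22, 16 and 19.5 CPM at 5% CO2, 4555, 3274 and 3518 at 5% CO2 with LPS, 20.5, 14.8 and 17.8 at 10% CO2, and 4695, 3908 and 3617 at 10% CO2 with LPS, with overlap both with and without LPS. Its interaction of 0.23 had an interval of −0.25 to 0.70 (edgeR adjusted p = 0.954). CCL20, a ligand of CCR6, was at 4.02, 2.43 and 2.27 CPM at 5% CO2, 617, 438 and 523 at 5% CO2 with LPS, 3.55, 2.03 and 2.08 at 10% CO2, and 793, 810.2 and 710.5 at 10% CO2 with LPS. All CCL20 libraries at 10% CO2 with LPS lay above those at 5% CO2 with LPS, the groups without LPS overlapped, and the interaction was 0.75 (interval 0.07 to 1.43, edgeR adjusted p = 0.795).

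IL6 had no count in any library without LPS, where a count of 0 allows up to 0.175 CPM (3 counts in the smallest library, counting error only). With LPS it stood at 2.23, 0.775 and 1.43 CPM at 5% CO2 and 2.90, 2.03 and 1.48 CPM at 10% CO2. These overlapped. ACOD1, which makes itaconate, was at 4.52, 1.71 and 4.18 CPM at 5% CO2 with LPS and 5.20, 5.62 and 5.39 CPM at 10% CO2 with LPS, where the 10% CO2 libraries were all higher. Without LPS it was at 0.0928 CPM in 5% CO2 replicate 3 and at 0 in the other 5 libraries without LPS, so no fold is given.

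For 3 inhibitors of the panel the intervals held 0. NFKBIA, the IκBα inhibitor of NF-κB, had an interaction of 0.24 (interval −0.07 to 0.56). TNFAIP3, the deubiquitinase A20, had 0.07 (−0.50 to 0.64), and ZFP36, which destabilizes cytokine mRNAs, −0.05 (−0.38 to 0.27). EGR1, an immediate early transcription factor, had 0.00 (−0.48 to 0.49). The signs of TNFAIP3, ZFP36 and EGR1 turned in some alternative analyses. The largest interaction of the panel was that of CRIM1, a membrane protein that binds growth factors, at 2.24 ± 0.70 (interval 0.72 to 3.76, edgeR adjusted p = 0.628). CRIM1 was at 0.904, 1.05 and 1.25 CPM at 5% CO2, 6.03, 4.39 and 11.1 at 5% CO2 with LPS, 0.865, 0.608 and 0.971 at 10% CO2, and 25.4, 34.8 and 19.2 at 10% CO2 with LPS, with the libraries at 10% CO2 with LPS above all others.

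Gene groups of the LPS response were then read by their counts and medians, beside all genes tested. Over all genes the median interaction was −0.01 and 48.2% were positive. At an unadjusted p under 0.05, 3.25% of genes were higher and 2.67% lower (533 and 438 genes). Without 10% CO2 replicate 1 these were 1062 and 728 genes. Of the genes that LPS induced on average over the CO2 levels, 72.1% had a positive interaction, with a median of 0.10. Among those induced at least 2-fold it was 74.4%, with a median of 0.34, and among repressed genes 28.3%, with a median of −0.13. A list near these values is not set apart from LPS-responsive genes in general. HIVEP2 is in none of the lists, and no list member passed the test with adjustment over all genes.

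The TLR4 receptor and adaptor chain had a median interaction of 0.11 over 21 genes, 16 of them positive. Unadjusted p-values were under 0.05 for 3 positive genes, TAB2, TRAF6 and TRAF3, and for 1 negative gene, TAB1. TAB2, an adaptor of the kinase TAK1, had 0.46 ± 0.11 (edgeR adjusted p = 0.221), and TAB1, the activator of the same kinase, −0.45 ± 0.15 (adjusted p = 0.608). In TAB1 LPS effects were −0.41 at 5% CO2 and −0.86 at 10% CO2.

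Of the 11 NF-κB subunits and inhibitors, 10 had a positive interaction, with a median of 0.30, and for 4 the unadjusted p was under 0.05: RELB, REL, NFKB1 and BCL3. Exon GC content in this list had a median of 59.6%, and with the GC correction its median interaction was 0.41. RELB, the subunit of the non-canonical pathway, was at 35.3, 33 and 25.9 CPM at 5% CO2, 347, 278 and 356 at 5% CO2 with LPS, 18.7, 19.1 and 23.7 at 10% CO2, and 344, 358 and 317 at 10% CO2 with LPS. Without LPS all 10% CO2 libraries lay below all 5% CO2 libraries, and with LPS the levels overlapped. Its interaction was 0.67 ± 0.17 (edgeR adjusted p = 0.305; 0.0443 with the GC correction). REL, the subunit c-Rel, stood at 28, 24.9 and 25.3 CPM at 5% CO2, 212, 193 and 173 at 5% CO2 with LPS, 26, 16.4 and 17 at 10% CO2, and 255, 224 and 235 at 10% CO2 with LPS, and with LPS the 10% CO2 libraries lay above the 5% CO2 libraries. The interaction of REL was 0.70 ± 0.19 (edgeR adjusted p = 0.397).

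The 16 chemokines had a median of 0.35, with 13 positive, 2 of them at an unadjusted p under 0.05 (CCL20 and CXCL8). The cytokines had a median of 0.23 over the 17 with counts in every group, 12 of them positive. Of these, TNFSF15, the TNF-like ligand TL1A, had 1.38 ± 0.44 and CSF1, the macrophage growth factor, 0.75 ± 0.24 (both edgeR adjusted p = 0.588). The 25 feedback inhibitors had a median of −0.02, with 12 positive. Within that list TNIP1, a partner of A20, had 0.52 ± 0.16, and SOCS3, an inhibitor of cytokine receptors, 0.68 ± 0.23. DUSP5, a phosphatase of ERK, lay on the other side at −0.53 ± 0.19, with LPS effects of 0.67 at 5% CO2 and 0.14 at 10% CO2. These 3 had an unadjusted p under 0.05, and none passed after adjustment (edgeR adjusted p of DUSP5 = 0.682).

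Of the 25 immediate early genes, 17 were positive and the median was 0.11. At an unadjusted p under 0.05 there were 4 positive genes and 1 negative gene. NR4A3, an orphan nuclear receptor, was at 0.904, 1.16 and 0.789 CPM at 5% CO2, 58.2, 58.5 and 61.7 at 5% CO2 with LPS, 0.638, 0.304 and 0.397 at 10% CO2, and 63, 71 and 74.4 at 10% CO2 with LPS. It was lowest at 10% CO2 without LPS and highest at 10% CO2 with LPS, without overlap between groups, and its interaction was 1.27 ± 0.34 (edgeR adjusted p = 0.363). BTG2, an antiproliferative factor, had 0.69 ± 0.17. The negative gene was MYC, a transcription factor of growth and proliferation, at −0.49 ± 0.14 (edgeR adjusted p = 0.4705). LPS effects on MYC were −2.74 at 5% CO2 and −3.23 at 10% CO2.

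The interferon-stimulated genes had a median of 0.20, and 28 of 34 were positive, 6 of them at an unadjusted p under 0.05. GBP2, a guanylate-binding protein, stood at 4.20, 3.42 and 3.43 CPM at 5% CO2, 43.3, 35 and 46 at 5% CO2 with LPS, 3.01, 1.83 and 2.34 at 10% CO2, and 54.2, 59.4 and 53.4 at 10% CO2 with LPS, with no overlap between groups. Its interaction was 1.04 ± 0.24 (edgeR adjusted p = 0.184). IFIT2, which binds foreign RNA, had 0.82 ± 0.22, and MX1, an antiviral GTPase, 0.23 ± 0.18. The median CO2 effect over the list was −0.21 without LPS and 0.01 with LPS.

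The 17 survival and death genes had a median of 0.16, with 13 positive and 5 of these at an unadjusted p under 0.05. RIPK2, a kinase of the NOD receptors, had 0.61 ± 0.16 and CFLAR, the caspase-8 inhibitor c-FLIP, 0.51 ± 0.14. KYNU, an enzyme of kynurenine breakdown in the list of immunometabolic enzymes (median 0.10 over 13 genes, 7 positive), was at 69.1, 60.0 and 61.4 CPM at 5% CO2, 192, 135 and 202 at 5% CO2 with LPS, 58, 41.9 and 48.5 at 10% CO2, and 259.8, 273 and 221 at 10% CO2 with LPS. With LPS its 10% CO2 libraries lay above the 5% CO2 libraries, and its interaction was 0.87 ± 0.20 (edgeR adjusted p = 0.233). The costimulatory and adhesion genes had a median of 0.08 over 15 genes, with 10 positive. The 12 growth factors had one of 0.08, with 7 positive, and the 13 inflammasome genes one of 0.03, with 8 positive. With the GC correction the median was −0.07 for the inflammasome genes (6 positive), 0.21 for the growth factors, 0.01 for the immunometabolic enzymes, 0.22 for the immediate early genes and 0.03 for the feedback inhibitors. The chemokines then had a median of 0.32, and 0 of them had an unadjusted p under 0.05.

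Myeloid identity genes lay on the other side of 0. Of 31, 6 were positive and the median was −0.11. CEBPA, a transcription factor of granulocyte and monocyte development, had −0.59 ± 0.25, with LPS effects of −2.13 at 5% CO2 and −2.72 at 10% CO2 (edgeR adjusted p of the interaction = 0.800). CEBPE, of the same family, had −0.94 ± 0.45. Exon GC content in this list had a median of 55.2%, and with the GC correction the median interaction was −0.09 with 10 of 31 positive.

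**Figure D4:**
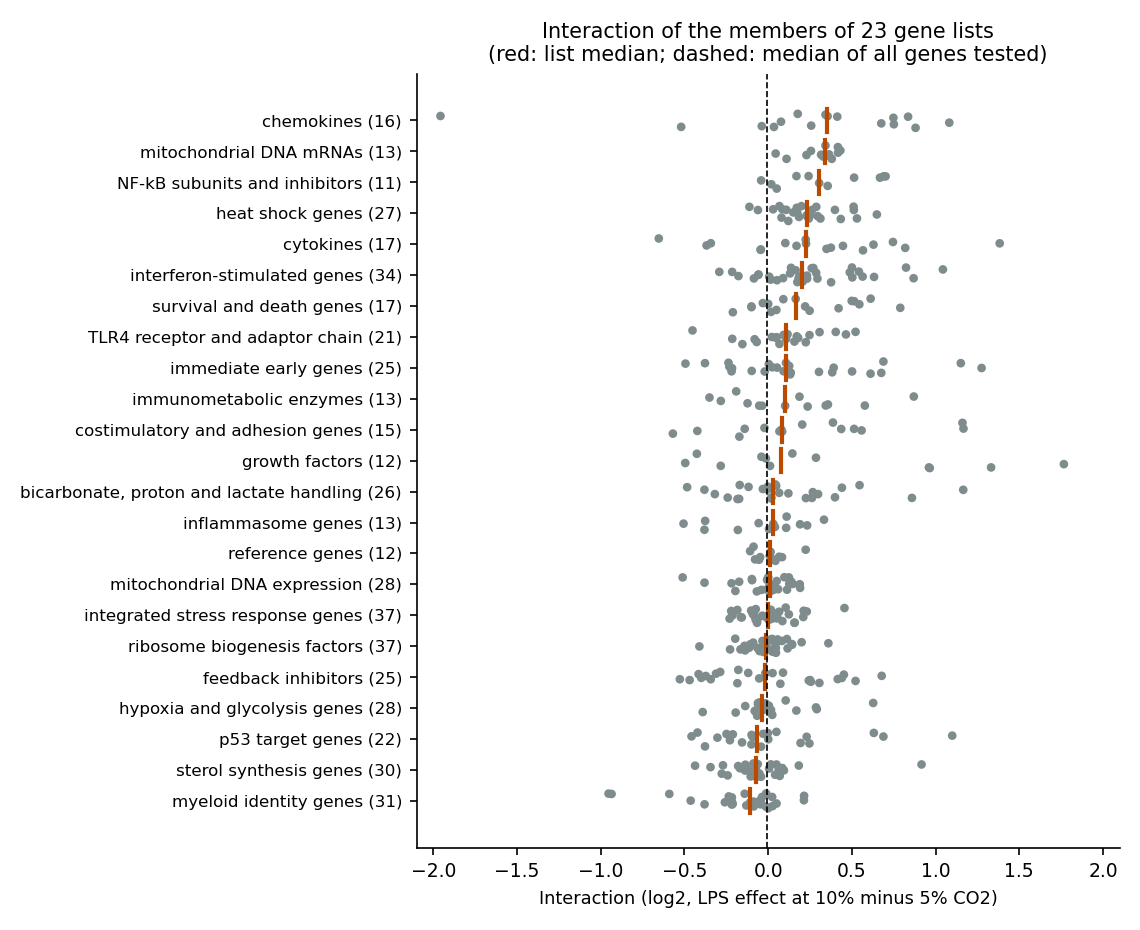
Interaction (log2) of each tested member with counts in every group, for 23 gene lists ordered by their median (red bar), with the number of members in brackets. The dashed line is the median of all genes tested (−0.01), and the list medians run from −0.11 for myeloid identity genes to 0.35 for chemokines.

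Lists of stress, metabolic, p53 target and reference genes were mostly near the median of all genes. The 37 integrated stress response genes had a median of 0.00, the 37 ribosome biogenesis factors one of −0.01, the 28 hypoxia and glycolysis genes one of −0.04 and the 26 genes of bicarbonate, proton and lactate handling one of 0.03. The 30 sterol synthesis genes had a median of −0.07 with 11 positive, and the 22 p53 target genes one of −0.07 with 8 positive. The 28 genes for mitochondrial DNA expression had a median of 0.01, and the 12 reference genes one of 0.01. With the GC correction these 2 medians were −0.04 and −0.02, and that of the hypoxia and glycolysis genes was 0.01. The 27 heat shock genes had a median of 0.23 with 25 positive, 1 of them, DNAJB6, at an unadjusted p under 0.05. HSPH1, an HSP110 chaperone, had 0.53 with an interval of −0.43 to 1.49. It stood at 365, 567 and 304 CPM in the libraries at 10% CO2 with LPS. With 1 library left out, the interaction of HSPH1 was 0.23 to 0.84. For the panel genes HSPA1B and FKBP4 it was 0.02 to 0.47 and 0.01 to 0.32. Members share libraries and are not replicates, so the count of positive members carries no test.

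All 13 mRNAs of mitochondrial DNA had a positive interaction, with a median of 0.34 and a median SE of 0.40, and none had an unadjusted p under 0.05. The share of counts from the mitochondrial genome varied between replicates. It was 1.45, 1.96 and 1.31% at 5% CO2, 1.60, 1.28 and 1.78% at 5% CO2 with LPS, 3.05, 2.91 and 2.01% at 10% CO2, and 2.92, 4.15 and 2.28% at 10% CO2 with LPS. The 10% CO2 libraries lay above the 5% CO2 libraries, and the groups with and without LPS overlapped at each CO2 level. The difference of differences was 0.478 percentage points, less than the pooled SD of 0.591 within groups. It was −0.0389 without 10% CO2 with LPS replicate 2. MT-ND5, a subunit of complex I, had 0.38 (−0.25 to 1.01), and MT-CO1, a subunit of complex IV, 0.26 (−0.70 to 1.21), whose sign turned in 1 alternative analysis.

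Across the LPS response as a whole, effects were on balance further from 0 at 10% CO2. LPS-responsive genes were taken from the LPS effect averaged over the CO2 levels, a contrast that is orthogonal to the interaction and that passed in 44.5% of genes. Of these, 7261 had counts in every group, 3338 induced and 3923 repressed. The LPS effect was larger at 10% CO2 in 71.9% of them, with a median of 0.11 on the log2 scale in the direction of the response. Among the 1535 that changed at least 2-fold on average it was larger in 74.6%, with a median of 0.31.

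In the 863 genes induced at least 2-fold the median interaction was 0.34, and the median CO2 effect was −0.10 without LPS and 0.22 with LPS. In the 672 genes repressed at least 2-fold the median interaction was −0.29, and the median CO2 effect was −0.03 without LPS and −0.33 with LPS. Genes share libraries and are not replicates, so these shares carry no test. Leaving out each library in turn gave shares of 66.3% to 75.1% for all responsive genes. With the GC correction the share was 69.3%.

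**Figure D5:**
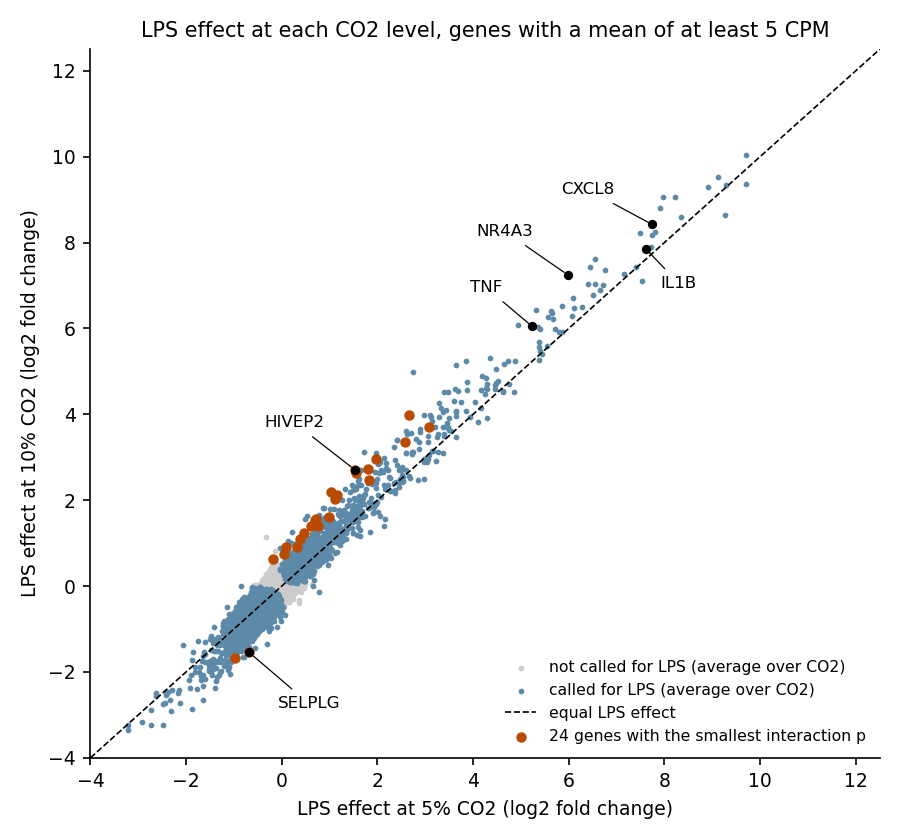
LPS effect (log2 fold change) at 10% CO2 against that at 5% CO2 for the 10811 genes whose mean was 5 CPM or more. Points on the dashed line respond equally, and vertical distance from it is the interaction. The 24 genes with the smallest interaction p (red) lie off the line through that choice. HIVEP2 and SELPLG are among the labelled points in black, and IL1B lies close to the line.

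Counting genes that pass at one CO2 level and not at the other gave a different picture from the test of the difference. LPS effects passed in 4134 genes at 5% CO2 and in 5810 at 10% CO2 (edgeR, adjusted p). Of the 2253 genes called at 10% CO2 alone, 0 passed the interaction test and 339 had an unadjusted interaction p under 0.05. Of the 577 called at 5% CO2 alone, 0 passed. The 3557 genes called at both levels all moved the same way. CO2 effects passed with LPS and not without it in 1266 genes, of which 0 passed the interaction test and 331 had an unadjusted p under 0.05, and without LPS alone in 84, of which 0 passed.

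These counts moved with single libraries. With 1 library left out, LPS effects passed at 10% CO2 alone in 1354 genes (without 10% CO2 replicate 3) to 2962 (without 5% CO2 with LPS replicate 3), and in 1408 when 10% CO2 with LPS lost replicate 2, with 0 to 4 of them passing the interaction test. They passed at 5% CO2 alone in 307 genes (without 5% CO2 replicate 3) to 910 (without 10% CO2 replicate 1), and in 367 and 346 without 5% CO2 with LPS replicates 1 and 3. CO2 effects passed with LPS alone in 193 genes (without 10% CO2 with LPS replicate 2) to 1637 (without 5% CO2 with LPS replicate 3), with 0 to 29 of them passing the interaction test. The number called with LPS alone was 337 and 378 without 5% CO2 with LPS replicates 1 and 2, and 808 without 10% CO2 with LPS replicate 3. CO2 effects passed without LPS alone in 321 genes when 10% CO2 lost replicate 1 and in 0 when it lost replicate 2. That number was 0, 7 and 43 without 5% CO2 replicates 1, 2 and 3, 128 when 5% CO2 with LPS lost replicate 1, and 153 when 10% CO2 with LPS lost replicate 2.

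The precision of the interaction was described over all genes. For genes whose mean was 5 CPM or more the median SE of the interaction was 0.16 and the median half-width of the 95% interval was 0.34. In 95.2% of these 10811 genes, the interval lay within −1 to 1, so a change of the LPS fold by more than 2 times lay outside it. These intervals are not adjusted for the number of genes. The 1 interaction called was 1.17, and that of PDGFA, 1.33, did not pass. Smaller interactions were not detectable in many genes at this depth and number of libraries.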

How the data were processed

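Poly(A)-selected, paired-end RNA sequencing of 12 libraries was deposited by the authors as 1 table of raw counts for each library, by Ensembl gene. Per the submitters' processing notes, Trimmomatic 0.36, STAR 2.5.2b and featureCounts (Subread 1.5.2) were used on GRCh38. The sources used here do not give the strand setting, the handling of multi-mapping reads or the annotation release, so reads of overlapping, antisense or near-identical genes could not be assigned with certainty.

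Groups came from sample titles. Replicates differed by more than sampling noise in their counts (chi-square over its degrees of freedom was 8.05 to 26.2). Symbols were matched for 56410 of 57500 identifiers (98.1%, with 99.5% of counts). The test was edgeR 4.0.16 in R 4.3.3 on all 12 libraries as 4 group means: filterByExpr by group, TMM normalization (factors 0.908 to 1.10), and a robust quasi-likelihood F test with the package's newer dispersion handling. Benjamini-Hochberg adjustment ran over 16402 genes, with a threshold of 0.05. The choice of dispersion handling was written down only through the list of alternatives, which names the legacy handling (the default of this version), and a first look at the data used the default. CPM values are TMM-normalized. Each standard error is the unshrunken effect of the fit divided by the square root of its F statistic. The 95% intervals use that standard error but are centred on the printed log2 effect, which the package shrinks toward 0. The 36 genes with no count in some group get no fold. The code was tested on simulated counts.

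Alternatives were other size factors, DESeq2 1.42.0, limma-voom (limma 3.58.1), other dispersion settings, other filters, a replicate block, a GC correction (a smooth trend of 5 degrees of freedom on exon GC content per library), mitochondrial counts left out, and each library left out. The default dispersion handling with the GC correction was added after seeing the data. Named genes were those called, the smallest p with a mean of at least 5 CPM up to 24 genes, a panel of inflammatory and other genes, and the 2 smallest p of each of 24 lists. HIVEP1, HIVEP3 and further list members with an unadjusted p under 0.05 were named after their values were seen. The members and lists were chosen with earlier results of these data known. Promoters are from RefSeq (GRCh38.p14).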

Additional observations from a re-analysis of the deposited data

Results flagged for a closer look

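HIVEP2 differed between the CO2 levels in its response to LPS by a test of the difference itself. Its interaction was 1.17 on the log2 scale (SE 0.15, edgeR quasi-likelihood test, Benjamini-Hochberg adjusted p = 0.0033), and all 9 library differences at 10% CO2 (2.56 to 2.86) lay above all 9 at 5% CO2 (1.24 to 1.78). These differences share libraries with each other and with the test, so they are no separate support. Groups of 3 libraries were too small for a test of single libraries that stand apart. The replicates that differed most were 10% CO2 replicates 1 and 3, with a chi-square over its degrees of freedom of 26.2. The next pair, 10% CO2 with LPS replicates 2 and 3, had 14.05.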

How the results depend on the processing

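HIVEP2 kept its direction and its call in all 25 alternatives, with an interaction of 1.06 to 1.28 and adjusted p of 3.35e-10 to 0.0257. The number of genes called, 1 here, was also 1 with RLE size factors, limma-voom, non-robust dispersion, a minimum mean of 5 CPM and mitochondrial counts left out. It was 2 with upper quartile factors, 4 with the default dispersion handling, 5 with the GC correction, 6 with both of these (added after seeing the data), 55 with DESeq2 (53 positive) and 98 of 44077 genes without a filter on low counts (67 positive). The cause of these differences was not tested. With the replicate block 6 genes were called (HIVEP2, CD44, HIVEP1, STARD4, PDGFA and ANKRD28), and 31 with the replicate block and GC correction (27 positive). The labels do not say what a replicate number marks, and the 4 groups did not all pair by number: deviations of same-numbered libraries correlated at over 0.1 in 8 of 18 pairs, and 5 of 12 libraries were closest to their own number. Number 1 stood apart, with 0.10 to 0.29 in its 6 pairs, against −0.132 to 0.192 for number 2 and −0.136 to 0.115 for number 3. Between 10% CO2 and 10% CO2 with LPS the 3 pairs had 0.251, 0.192 and 0.106. Leaving out each library in turn gave 1 to 31 calls, a median interaction in the direction of the response of 0.0900 to 0.161 over LPS-responsive genes and of 0.253 to 0.374 over those that changed at least 2-fold, and a mitochondrial share difference of −0.0389 to 0.895 percentage points. Within replicate numbers 1, 2 and 3 that difference was −0.281, 1.91 and −0.198. Of the 88 named genes with a fold, 53 were called in no alternative, and the sign of 6 uncalled ones (CCL3, TNFAIP3, ZFP36, EGR1, MT-CO1 and ACTB) turned in at least 1. None of the 24 genes with the smallest p changed sign. Calls of the CO2 effect without and with LPS, 241 and 1423 here, were 669 and 1948 with DESeq2, 583 and 1733 without the filter, 867 and 1722 with the GC correction, 730 and 2129 with the replicate block, and 2026 and 2969 with the block and GC correction. The CO2 effect of HIVEP2 without LPS passed in 16 of the 25 alternatives, and limma-voom gave an adjusted p of 0.0551. Of the genes with a CO2 effect called with LPS alone, DESeq2 called the interaction in 43 and the fit without the filter in 81. Depth was not varied. The median SE of the interaction was 0.20 over all genes and 0.16 over those averaging at least 5 CPM.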
